A study of Mus musculus with 2 samples.

Results

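Integrins are cell adhesion receptors built from 1 alpha and 1 beta chain. The 9 integrin chain genes of regulatory T cells (Tregs) described here were chosen by name out of 32285 listed features: Itgb1, Itgb2, Itgb7, Itgb8, Itgae, Itgal, Itga4, Itga6 and Itgav. Their UMI counts (unique molecular identifiers, which mark single transcript molecules) were read in each T cell state of 2 droplet single-cell libraries, with 21820 of 32658 barcodes kept at 300 genes or more and 5% mitochondrial UMIs or less. A kept barcode is called a cell here.

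Both libraries held YFP+7AAD- cells, by the study's methods also CD4+, sorted from the spleens of C57BL/6J mice at day 7 of age, 1 library of WT mice and 1 of KO mice (Zfp335fl/flFoxp3-Cre). In the study WT mice carry the Foxp3-driven Cre recombinase without the floxed allele, so both groups share the Cre and its YFP reporter, and deletion of Zfp335, a zinc finger transcription regulator, is limited to cells that have used the Foxp3 promoter. The number of mice behind each library is not given in the sources used here, and there is no replicate library. No test between WT and KO was possible, and every interval is an exact 95% interval that covers counting error only.

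On T cells a given alpha chain decides much of the ligand specificity and the beta chain anchors the pair to talin and kindlin inside the cell. LFA-1, made of Itgal and Itgb2, binds ICAM proteins and holds T cells to antigen-presenting cells and vessel walls. VLA-4, made of Itga4 and Itgb1, binds VCAM-1 and fibronectin, whereas Itga4 with Itgb7 binds MAdCAM-1 of gut vessels and Itgae with Itgb7 (CD103) binds E-cadherin of epithelium. Itga6 with Itgb1 binds laminin, and Itgav with Itgb8 frees active TGF-beta from its latent complex, an activity known from effector Tregs.

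The promoters of 3 chains are shown because Itgb1 and Itga4 were lower in KO past 1.5-fold in all 4 T cell states of the clustering used, whereas Itgb7 was not lower past 1.5-fold in any. Each run is the 250 bases before the RefSeq start site on build GRCm38.p6, 5′ to 3′ on the gene's strand, and capitals mark GGGCGG (the GC box) or TGTGGT (the Runx core) on either strand. Itgb1 is at chr8:128685404-128685653 on the plus strand, Itga4 at chr2:79255176-79255425 on the plus strand and Itgb7 at chr15:102231936-102232185 on the minus strand.
Itgb1: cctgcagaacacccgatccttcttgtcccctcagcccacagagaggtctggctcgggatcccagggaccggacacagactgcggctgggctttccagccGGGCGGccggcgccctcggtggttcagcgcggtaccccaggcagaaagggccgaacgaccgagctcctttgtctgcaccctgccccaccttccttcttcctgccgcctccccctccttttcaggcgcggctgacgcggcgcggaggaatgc
Itga4: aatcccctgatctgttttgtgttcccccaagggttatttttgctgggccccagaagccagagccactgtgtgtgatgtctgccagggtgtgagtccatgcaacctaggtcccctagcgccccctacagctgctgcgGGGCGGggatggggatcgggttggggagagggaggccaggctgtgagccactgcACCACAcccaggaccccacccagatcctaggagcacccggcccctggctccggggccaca
Itgb7: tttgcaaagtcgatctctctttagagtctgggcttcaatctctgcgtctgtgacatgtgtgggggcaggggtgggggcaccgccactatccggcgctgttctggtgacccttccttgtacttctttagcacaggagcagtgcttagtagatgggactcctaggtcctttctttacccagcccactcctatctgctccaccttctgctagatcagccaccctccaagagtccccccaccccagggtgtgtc

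GGGCGG was found once each before Itgb1 and Itga4 and not before Itgb7, and 32.7% of all 32851 RefSeq promoter windows of this length hold it. TGTGGT was found once, before Itga4, against 14.0% of all windows. CCGGAA (the Ets core), CACGTG (an E-box) and TGANTCA (the AP-1 site) were in none of the 3, with shares of 12.0%, 6.02% and 6.75% over all windows, and none of the 5 motifs overlapped another here. The Itgb1 window held 21 CpG dinucleotides and had 68.0% G and C, against 6 CpG and 64.0% for Itga4, 5 and 56.0% for Itgb7 and medians of 6 and 52.4% over all windows. Windows were also listed for Itgb8 and Itgav, so that 5 of the 9 chains matched. Neither of these windows held any of the 5 motifs. Itgav was lower in KO past 1.5-fold in resting-like and activated-like cells, and Itgb8 in effector-like cells. A link between motifs and levels was not tested.

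The 9 genes are protein-coding and lie on 7 chromosomes of GRCm38 by the GENCODE vM21 annotation: Itgb1 at chr8:128685654-128733200, Itgb2 at chr10:77530252-77565708, Itgb7 at chr15:102215995-102231944, Itgb8 at chr12:119158022-119238802, Itgae at chr11:73090583-73147446, Itgal at chr7:127296260-127335138, and Itga6, Itga4 and Itgav on chromosome 2 at 71745616-71858416, 79255426-79333123 and 83724397-83806916. Itgb7 and Itgb8 are on the minus strand and the others on the plus strand. Cerkl overlaps Itga4 and Haspin overlaps Itgae, both on the opposite strand, and non-coding genes overlap Itga6 and Itgav. Only for Itga6 do 2 of them, Gm13663 and Gm13662, lie on the same strand, so reads of Itga6 could have been divided between genes there.

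The WT library held 64567991 UMIs and the KO library 65480052, and the kept cells had medians of 5061 and 2713 UMIs. Zfp335 itself was at 8.18 CPM (UMIs per 1000000 UMIs of the group) in T-lineage cells of WT (397 UMIs) and 0.803 CPM in those of KO (42 UMIs), a KO to WT ratio of 0.0982 (0.0697 to 0.135), so the labels match the targeted gene. The labelled cell type was present too: Foxp3 was at 40.6 CPM in WT and 44.6 CPM in KO T-lineage cells against 4.89 and 5.03 CPM in neutrophil-like cells. T-lineage cells made up 7495 of 8053 kept WT cells and 12926 of 13767 kept KO cells. The rest were erythroid-like (279 WT, 540 KO), neutrophil-like (199 and 193), B-like (42 and 29), macrophage-like (35 and 5) or unnamed. The 2 libraries shared 70 barcode sequences, 29 of them among kept cells.

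Clusters were made without any integrin gene, and 4 T cell states were named from marker genes. Resting-like cells (2148 WT, 4753 KO) led with Ly6c1 and Satb1, effector-like cells (2335 WT, 115 KO) with S100a4, Cxcr3, Ccl5 and Klrg1, activated-like cells (647 and 1073) with Bcat1 and Nefh, and cycling-like cells (646 and 1116) with histone genes. The state's own markers were raised 8 of 10, 11 of 12, 5 of 10 and 10 of 10 in this order, so the activated-like name rests on the weakest match. A further 4 T-lineage clusters stayed unnamed, with median depths of 673 to 1429 UMIs: 1 of them held 4803 KO and 88 WT cells, 1 held 704 KO and 9 WT, 1 held 946 WT and 30 KO, and 1 held 676 WT and 332 KO. Leading genes included Hba-a1 and Mpo in the cluster of 4803 KO cells, Camp and Ngp in that of 704, and Hba-a1 and S100a8 in that of 946 WT cells. Unnamed clusters gave 4.16% of T-lineage UMIs in WT and 18.3% in KO, and values over the T lineage include them. In the cluster of 4803 KO cells the KO to WT ratio was 0.152 (0.108 to 0.221) for Itgb1 and 0.373 (0.263 to 0.548) for Itga4. Effector-like cells gave 39.4% of T-lineage UMIs in WT and 1.71% in KO. Values of KO effector-like cells therefore rest on 115 cells and 896103 UMIs. These cells also differed from WT ones in the markers of the name. Klrg1 was at 67.9 CPM in WT and 6.70 in KO (6 UMIs), and Ccl5 at 162 and 420 CPM.

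Itgb1, the common beta 1 chain, was lower in KO in all 4 states. Among the 7 chains with 100 UMIs or more in every state, it had the lowest KO to WT ratio in resting-like, activated-like and cycling-like cells, and of the 9 chains it differed most between WT effector-like and resting-like cells. Its WT level was 98.7 CPM (92.6 to 105) in resting-like, 471 (462 to 481) in effector-like, 160 (151 to 170) in activated-like and 335 (324 to 346) in cycling-like cells. In KO the same states stood at 23.4 (21.3 to 25.5), 219 (189 to 252), 35.8 (32.2 to 39.8) and 44.3 CPM (40.5 to 48.4). Both libraries had the order effector-like, cycling-like, activated-like, resting-like, with no overlap of neighbouring levels within counting error. The place of cycling-like cells did not hold at a finer clustering (resolution 1.0). The larger cycling-like cluster there was at 111 CPM in WT and 34.9 in KO, and the smaller at 400 and 35.1. Activated-like cells were at 186 and 37.4 CPM. The KO to WT ratio was 0.237 (0.212 to 0.264) in resting-like, 0.464 (0.401 to 0.534) in effector-like, 0.224 (0.198 to 0.252) in activated-like and 0.132 (0.120 to 0.145) in cycling-like cells. These are levels per UMI of the state and do not depend on how many cells it holds. They do depend on which cells it holds, and that mix can differ between the libraries. At resolution 1.0 the cycling-like ratio was 0.315 in the larger cluster and 0.0877 in the smaller. Of all Itgb1 UMIs of the WT T lineage, 59.9% lay in effector-like and 6.36% in resting-like cells. In KO the shares were 10.5% and 26.0%.

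Itga4, the alpha chain that pairs with both Itgb1 and Itgb7, was also lower in KO in all 4 states, with ratios between 0.375 and 0.447. Its WT levels were 219 CPM (210 to 229) in resting-like, 334 (326 to 343) in effector-like, 150 (141 to 159) in activated-like and 199 (191 to 208) in cycling-like cells. The KO levels were 97.2 (93.0 to 101), 150 (125 to 177), 56.2 (51.6 to 61.0) and 77.2 CPM (72.1 to 82.5). The order effector-like, resting-like, cycling-like, activated-like was shared by both libraries and clear of counting error. The ratio was 0.443 (0.417 to 0.471), 0.447 (0.374 to 0.531), 0.375 (0.338 to 0.416) and 0.388 (0.358 to 0.420) in resting-like, effector-like, activated-like and cycling-like cells.

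Itgb7, the partner of Itga4 and Itgae, had KO to WT ratios between 0.957 and 1.23. It stood at 346 CPM (335 to 358) in WT and 427 (419 to 436) in KO resting-like cells, at 411 (402 to 420) and 393 (353 to 436) in effector-like, at 187 (177 to 197) and 222 (213 to 231) in activated-like and at 294 (284 to 304) and 308 (297 to 318) in cycling-like cells. The ratios were 1.23 (1.19 to 1.28), 0.957 (0.857 to 1.06), 1.19 (1.11 to 1.27) and 1.05 (0.997 to 1.10). Effector-like and cycling-like cells showed no difference beyond counting error, and KO resting-like and activated-like cells were above WT. The activated-like direction did not hold at a finer clustering (resolution 1.0), where Itgb7 was at 191 CPM in WT and 174 in KO, a ratio of 0.913 (0.848 to 0.984). Activated-like cells had the lowest Itgb7 in both libraries.

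The LFA-1 chains went apart: Itgal was lower in KO in all 4 states and Itgb2 was higher in all but resting-like cells. Itgal was at 120 CPM (113 to 127) in WT and 91.4 (87.3 to 95.6) in KO resting-like cells, at 129 and 92.6 in effector-like, at 121 and 88.7 in activated-like and at 98.5 and 87.2 in cycling-like cells, with ratios of 0.764 (0.710 to 0.822), 0.715 (0.568 to 0.890), 0.733 (0.667 to 0.806) and 0.885 (0.810 to 0.967). None of these Itgal ratios passed 1.5-fold. With each cell thinned to 1000 UMIs the cycling-like Itgal ratio was 0.991. The thinned effector-like Itgal ratio was 0.508, past 1.5-fold, with a UMI in 8 of 115 KO cells. Itgb2, shared by all beta 2 integrins of leukocytes, was at 125 CPM (118 to 132) in WT and 131 (126 to 136) in KO resting-like cells, at 97.9 and 156 in effector-like, at 84.6 and 106 in activated-like and at 89.9 and 119 in cycling-like cells. Its ratios were 1.05 (0.980 to 1.12), 1.60 (1.33 to 1.90), 1.26 (1.14 to 1.39) and 1.32 (1.22 to 1.44). In WT both chains differed little between states beside Itgb1, Itgal from 98.5 to 129 CPM and Itgb2 from 84.6 to 125 CPM.

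Itga6, a laminin receptor chain, was the only chain whose KO to WT ratio lay below 1 in some states and above 1 in others, each clear of counting error. In WT it was at 88.3 CPM (82.5 to 94.4) in resting-like, 57.8 (54.4 to 61.3) in effector-like, 29.5 (25.7 to 33.8) in activated-like and 45.2 (41.2 to 49.4) in cycling-like cells. In KO it was at 71.2 (67.6 to 74.9), 37.9 (26.3 to 53.0), 38.4 (34.7 to 42.5) and 58.1 CPM (53.7 to 62.7). The ratios were 0.806 (0.740 to 0.878), 0.656 (0.452 to 0.923), 1.30 (1.10 to 1.55) and 1.29 (1.14 to 1.45). The 2 ratios above 1 did not keep their side under every alternative: with a finer clustering the activated-like and cycling-like ratios were 0.920 and 0.802, and with each cell thinned to 1000 UMIs the activated-like ratio was 0.685. The ratio in effector-like cells was 1.02 with the highest doublet scores removed.

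Itgav, the alpha chain of the TGF-beta-freeing integrins, was at 22.0 CPM (19.1 to 25.1) in WT and 14.1 (12.6 to 15.9) in KO resting-like cells, at 26.5 (24.3 to 28.9) and 20.1 (11.9 to 31.7) in effector-like, at 23.8 (20.4 to 27.7) and 9.16 (7.37 to 11.2) in activated-like and at 17.0 (14.6 to 19.6) and 11.3 (9.46 to 13.5) in cycling-like cells. The ratios were 0.644 (0.538 to 0.772), 0.757 (0.445 to 1.21), 0.385 (0.295 to 0.499) and 0.669 (0.528 to 0.845). The effector-like difference was not detectable with 18 KO UMIs, whereas the other 3 states had lower levels in KO.

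Itgb8 and Itgae were near the limit of detection. Itgb8 had 226 UMIs over the WT T lineage and 99 over that of KO, and was at 2.99 CPM (2.00 to 4.29) in WT and 1.21 (0.781 to 1.78) in KO resting-like cells, at 5.71 (4.10 to 7.74) and 2.72 (1.79 to 3.95) in activated-like and at 2.95 (2.01 to 4.19) and 1.70 (1.02 to 2.65) in cycling-like cells. Effector-like cells held 115 Itgb8 UMIs in WT, a level of 6.00 CPM (4.96 to 7.21), and none among the 896103 UMIs of KO. A count of 0 allows up to 3 UMIs there, or 3.35 CPM, so Itgb8 was at least 1.79-fold lower in KO effector-like cells when the WT level is taken as measured. With the counting error of both libraries the ratio could be as high as 0.697, which is short of 1.5-fold. Itgae, the CD103 alpha chain, had 206 UMIs over the WT T lineage and 49 over that of KO. It was at 2.89 CPM (1.92 to 4.17) in WT and 1.30 (0.859 to 1.90) in KO resting-like cells and at 6.11 (5.05 to 7.32) and 4.46 (1.22 to 11.4) in effector-like cells. In activated-like cells 22 UMIs in WT stood against 5 in KO, a ratio of 0.164 (0.0486 to 0.445), and in cycling-like cells 31 against 3, a ratio of 0.0907 (0.0177 to 0.291).

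**Figure D1:**
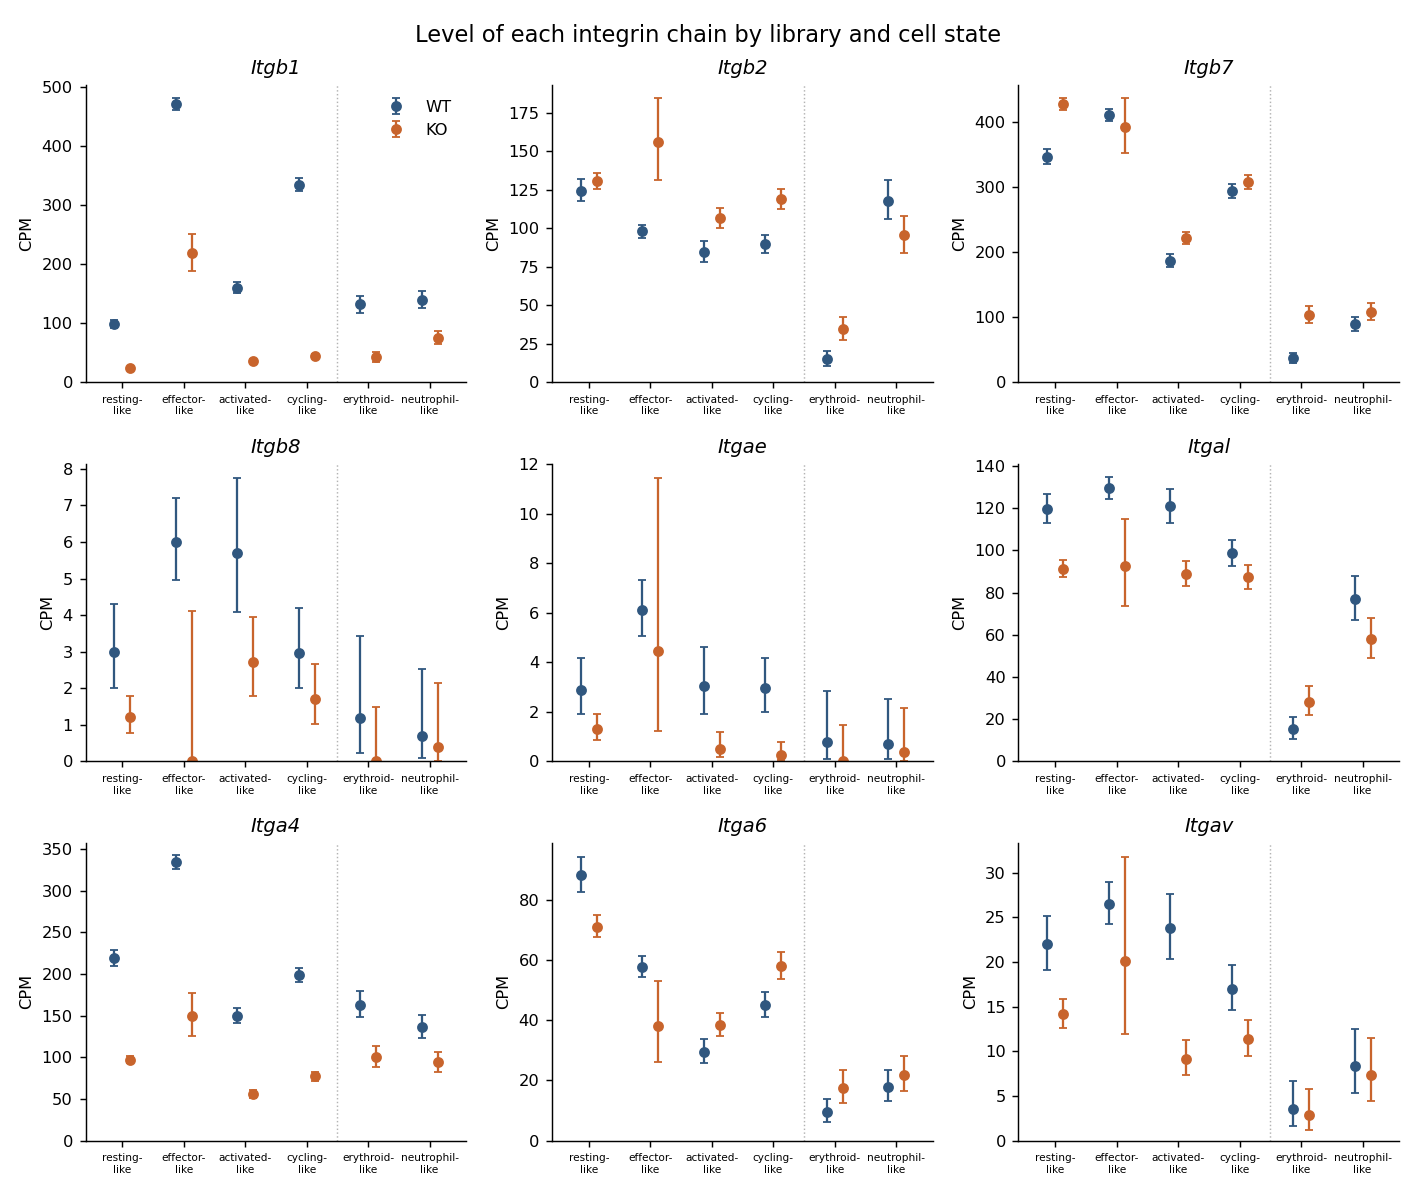
Level of each chain in CPM (vertical axes, linear, each from 0) in 4 T cell states and in erythroid-like and neutrophil-like cells, WT in blue and KO in orange. Points are UMIs summed per library and state and bars are exact Poisson 95% intervals. Itgb1 in WT runs from 98.7 CPM in resting-like to 471 CPM in effector-like cells, while Itgb7 in KO stays at or above 222 CPM in all 4 T cell states.

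Read over the whole list, Itgb1 and Itga4 were lower past 1.5-fold in all 4 states, joined by Itgav, Itga6 or Itgb8 in some. In resting-like cells 3 of the 7 chains with 100 UMIs or more were lower by 1.5-fold or more (Itgb1, Itga4, Itgav) and 0 were higher, where 8.57% of all 9253 genes with that many UMIs were lower and 2.19% higher. In effector-like cells 4 of 9 were lower (Itgb1, Itgb8, Itga4, Itga6) and 1 higher (Itgb2), against 14.9% and 6.21% of 8693 genes. Of these 5, Itga4 did not pass at resolution 1.0 (0.709), where Itgb1 was at the limit (0.666). Itgb2 did not pass at that resolution (1.49) or with the highest doublet scores removed (1.20). Itga6 lay between 0.684 and 1.02 under 4 alternatives and did not pass in any of them. In resting-like cells Itgav did not pass in thinned cells (0.758) or in cells without effector-marker UMIs (0.707). In activated-like cells 3 of 7 were lower (Itgb1, Itga4, Itgav) and 0 higher, against 8.01% and 3.74% of 8155 genes, and in cycling-like cells 2 of 7 (Itgb1, Itga4) and 0, against 7.32% and 7.16% of 8673 genes. The median log2 ratio of the tested chains was -0.39, -0.47, -0.45 and -0.18 in these 4 states, and that of all tested genes -0.08, -0.03, -0.07 and 0.03. Itgb8 and Itgae had under 100 UMIs in all but the effector-like comparison and are not counted in the others. The chains were chosen with earlier results of these data known, so the counts beside all genes are a description of this list only.

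**Figure D2:**
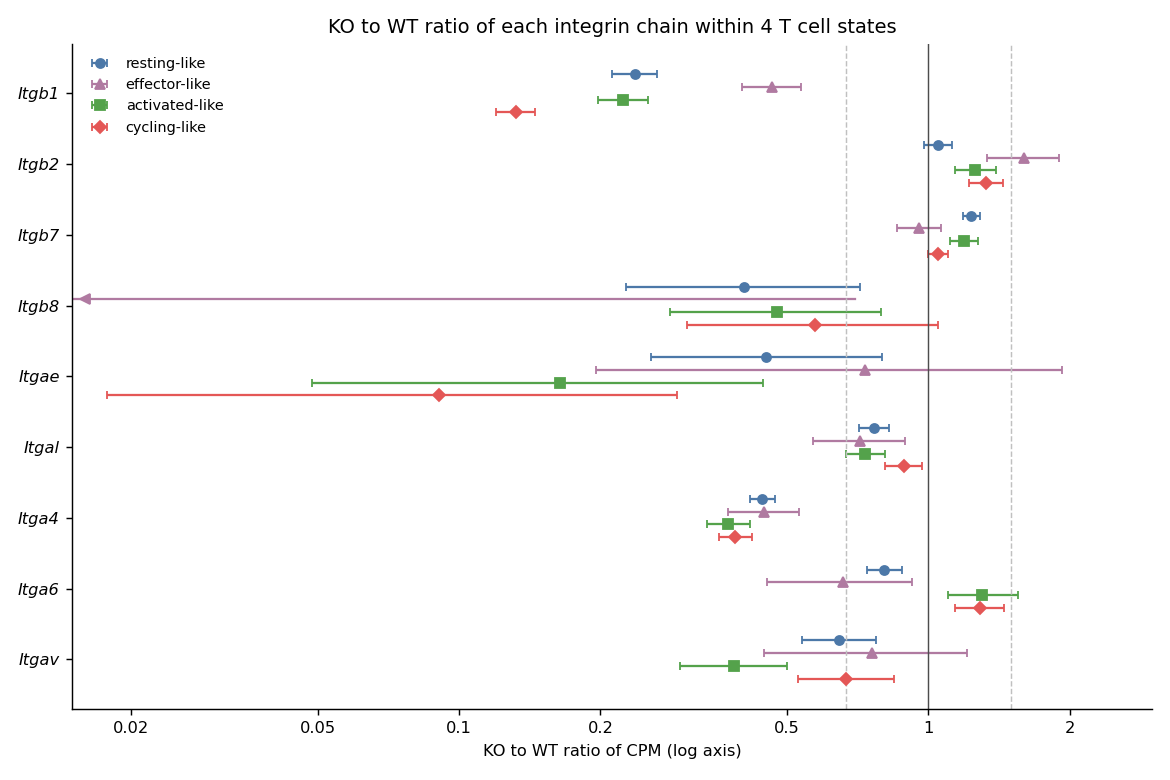
KO to WT ratio of CPM (horizontal log axis) for each of the 9 chains within resting-like, effector-like, activated-like and cycling-like cells, with exact 95% intervals, a solid line at 1 and dashed lines at 1.5-fold in each direction. The arrow marks Itgb8 in effector-like cells, with 0 UMIs in KO. Itgb1 and Itga4 lie below the lower dashed line in every state, and the Itgb7 and Itgal points lie between the dashed lines.

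Because effector-like cells were scarce in KO, the ratio over the whole T lineage also moved with the mix of states. Over all T-lineage cells Itgb1 was at 310 CPM in WT and 35.5 CPM in KO, a ratio of 0.114 (0.109 to 0.120). With the KO levels of each state weighted by the WT mix, the KO value was 108 CPM (96.3 to 121) and the ratio 0.349. Itga4 went from 0.324 (0.313 to 0.335) to 0.427, Itgav from 0.510 (0.462 to 0.564) to 0.670 and Itgae from 0.221 (0.158 to 0.303) to 0.509. Itgb8 went the other way, from 0.406 (0.318 to 0.517) to 0.291. Itgal (0.762 and 0.757), Itgb7 (1.03 and 1.06), Itgb2 (1.20 and 1.34) and Itga6 (1.01 and 0.891) moved less. The weighted values of Itgb8 and Itgae lean on the 0 and 4 UMIs of KO effector-like cells.

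**Figure D3:**
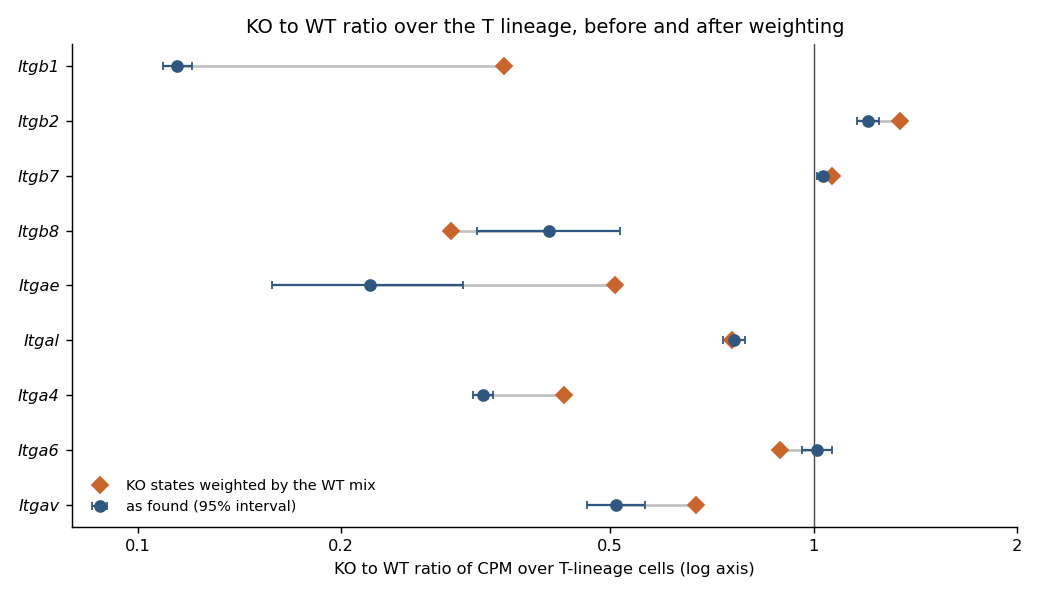
KO to WT ratio of CPM over all T-lineage cells (horizontal log axis) for each chain as found (blue circles, exact 95% intervals) and with KO states weighted by the WT share of UMIs in each state (orange diamonds). The Itgb1 ratio moves from 0.114 to 0.349, the longest shift of the 9 chains.

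Within WT, where both states were well filled, the chains sorted into those that were higher in effector-like than in resting-like cells and those that were not. The effector-like to resting-like ratio was 4.77 (4.47 to 5.11) for Itgb1, 2.12 (1.39 to 3.32) for Itgae, 2.01 (1.33 to 3.13) for Itgb8 and 1.52 (1.45 to 1.60) for Itga4. Itgb7 was at 1.19 (1.14 to 1.24) and Itgal at 1.08 (1.01 to 1.16), whereas Itgb2 was at 0.786 (0.731 to 0.846) and Itga6 at 0.654 (0.598 to 0.716). Itgav was at 1.21 (1.03 to 1.42). These 4 of 9 chains higher past 1.5-fold and 1 of 9 lower (Itga6) compare with 12.0% and 10.6% of 9400 genes. At resolution 1.0 the count past 1.5-fold was 2 chains rather than 5, with Itga4 at 1.14, Itgae at 1.39 and Itgb8 at 1.40, and Itgal (0.934) and Itgav (0.959) lay on the other side of 1. In KO the Itgb1 ratio between the 2 states was 9.36 (7.89 to 11.1) and that of Itga4 1.54 (1.28 to 1.83).

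Markers of effector-like cells were also found in WT resting-like cells, and their levels stand beside the resting-like values of the chains. The 12 effector markers were at 6.68% to 36.6% of their WT effector-like level there, with a median of 13.3% (Klrg1 at 6.68%, S100a6 at 10.6%, Icos at 28.8%, Nrp1 at 36.6%). Itgb1 was at 20.9% (19.6 to 22.4), inside that range, and Itga4 at 65.6% (62.4 to 68.9), above it, as were the other 7 chains. These percentages of the Itgb1 level in WT effector-like cells come to between 31.5 and 173 CPM, and its WT resting-like level was 98.7 CPM. For Itga4 they come to between 22.3 and 122 CPM, against 219 CPM. The KO to WT ratios of the 12 markers in resting-like cells ran from 0.0958 (Klrg1) to 1.26 (Lgals1), with a median of 0.291, and 5 of the 12 were below the 0.237 of Itgb1 and 8 below the 0.443 of Itga4. Among resting-like cells without a UMI of 9 effector markers (1007 WT, 3488 KO), Itgb1 was at 64.6 CPM (57.1 to 72.8) in WT and 20.4 (18.1 to 22.9) in KO, a ratio of 0.316 (0.266 to 0.374), and Itga4 at 201 and 94.0 CPM, a ratio of 0.467 (0.428 to 0.510). The part of effector-cell RNA in the resting-like difference was not tested.

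**Figure D4:**
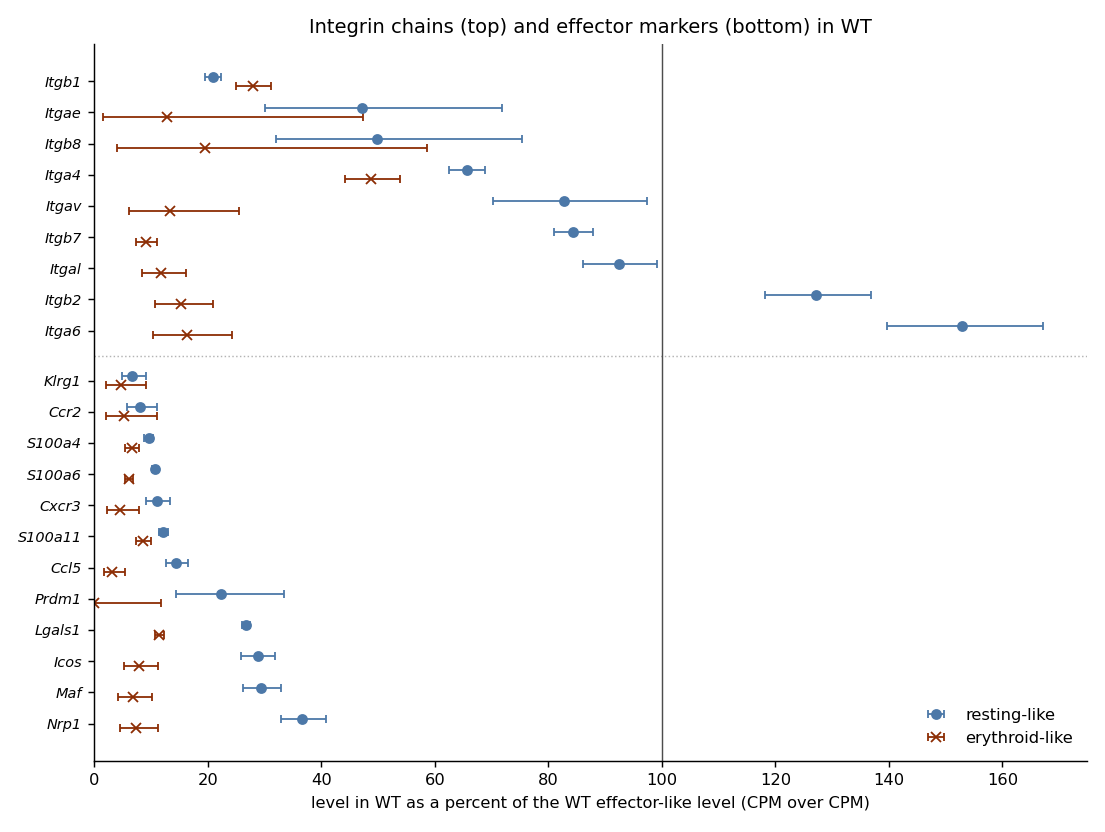
Level in WT resting-like cells (blue circles) and WT erythroid-like cells (brown crosses) as a percent of the level in WT effector-like cells (horizontal axis, linear), for the 9 chains above the dotted line and 12 effector markers below it, with exact 95% intervals. Itgb1 in resting-like cells, at 20.9%, lies within the 6.68% to 36.6% of the markers, and the other 8 chains lie above it.

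In activated-like cells the KO to WT ratios of the 12 effector markers ran from 0.0125 (S100a4) to 0.716 (Lgals1), with a median of 0.138, and 8 were below the 0.224 of Itgb1. In cycling-like cells they ran from 0.0378 (Klrg1) to 0.527 (Icos), with a median of 0.107, and 7 were below the 0.132 of Itgb1. Below the Itga4 ratio were 10 in each of these states. In effector-like cells the 12 markers ran from 0.0986 (Klrg1) to 2.59 (Ccl5), with a median of 0.662. There 4 were below the 0.464 of Itgb1 and 4 below the 0.447 of Itga4. The part of the effector markers in the differences of the chains was not tested. At resolution 1.0 the activated-like cluster (713 WT, 880 KO cells) had Itgb1 at 186 CPM in WT and 37.4 in KO, a ratio of 0.201 (0.177 to 0.227). The larger resting-like cluster there (1381 WT, 1300 KO) had ratios of 0.220 (0.175 to 0.273) for Itgb1 and 0.543 (0.494 to 0.597) for Itga4. In the smaller (85 WT, 1194 KO) they were 0.144 (0.108 to 0.193) and 0.428 (0.338 to 0.546). Cluster 3 (583 WT, 2091 KO), unnamed there, had 0.309 (0.254 to 0.377) and 0.656 (0.581 to 0.743). Its WT Itga4 level was 131 CPM, against 262 CPM in the larger resting-like cluster. In cluster 10 of that clustering (177 WT, 756 KO cycling-like cells) Itgb1 was at 111 CPM in WT and 34.9 in KO, a ratio of 0.315 (0.262 to 0.379), and Itga4 at 164 and 67.4, a ratio of 0.410 (0.356 to 0.474). In its cluster 16 (60 WT, 330 KO, also cycling-like) the ratios were 0.0877 (0.0676 to 0.113) and 0.273 (0.223 to 0.333). Of 3 effector-like clusters at that resolution, the largest (1681 WT, 83 KO cells) had Itgb1 at 482 and 187 CPM, a ratio of 0.388 (0.317 to 0.470). Its Itga4 ratio was 0.335 (0.259 to 0.425). The middle one (558 WT, 22 KO) had ratios of 0.767 (0.626 to 0.930) for Itgb1 and 0.708 (0.542 to 0.910) for Itga4, neither past 1.5-fold. The smallest (405 WT, 15 KO) had Itgb1 at 382 and 488 CPM, a ratio of 1.28 (1.05 to 1.54), and Itga4 at 200 and 421 CPM, a ratio of 2.10 (1.70 to 2.58). Those 15 KO cells were the exception among the named finer clusters to a lower Itgb1 and Itga4 in KO. Their cluster led with histone genes (Hist1h1b, Hist1h2ab), as cycling-like cells did, beside Gzmb, Gzma, Cxcr3 and Klrg1.

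The same chains were read in cells of other lineages. Cd3e, a T cell receptor subunit, was at 66.5 CPM in WT and 104 CPM in KO erythroid-like cells, against 428 and 400 CPM over the T lineage. Itgb1 was at 132 CPM (118 to 147) in WT and 42.4 (34.6 to 51.3) in KO erythroid-like cells and at 140 and 75.0 CPM in neutrophil-like cells, with ratios of 0.321 (0.255 to 0.401) and 0.536 (0.449 to 0.638). Itga4 had ratios of 0.613 (0.522 to 0.719) and 0.687 (0.583 to 0.808) there. Erythroid precursors are known to carry VLA-4 themselves, and WT erythroid-like cells had Itgb1 at 28.0% and Itga4 at 48.8% of the WT effector-like level, where the 12 effector markers reached at most 11.4%. Zfp335 was at 2 UMIs in KO against 14 in WT erythroid-like cells and at 14 against 22 in neutrophil-like cells. The part of free RNA and doublets in these differences was not tested.

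At equal depth, with each cell thinned to 1000 UMIs, a UMI of Itgb1 was found in 7.82% (6.72 to 9.04) of WT and 2.40% (1.99 to 2.88) of KO resting-like cells, and in 27.4% and 8.46% before thinning. The thinned shares in effector-like cells were 33.9% (32.0 to 35.9) and 14.8% (8.85 to 22.6), in activated-like cells 11.7% and 3.36%, and in cycling-like cells 24.1% and 3.32%. Erythroid-like cells gave 8.51% (5.28 to 12.8) in WT and 4.54% (2.86 to 6.79) in KO, with median depths of 4323 and 2223 UMIs before thinning, against 4203.5 and 3859 in resting-like cells. The resting-like share of Itgb1 was thus not above the erythroid-like one in either library, and the WT activated-like interval (9.37 to 14.5) overlapped it too. The KO activated-like (2.36 to 4.61) and cycling-like (2.35 to 4.55) shares were not above it either. Since erythroid precursors are known to carry both VLA-4 chains, their share is no measure of free RNA for Itgb1 and Itga4, and no cell type here is sure to lack them. Effector-like shares were above it in both libraries.

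Itga4 at equal depth was found in 18.2% (16.6 to 19.9) of WT and 9.48% (8.66 to 10.3) of KO resting-like cells and in 26.4% and 11.3% of effector-like cells, against 12.3% (8.42 to 17.2) and 10.1% (7.57 to 13.1) of erythroid-like cells. The KO resting-like share was not above that of the erythroid-like cells, nor were the KO activated-like (5.13%) and cycling-like (6.64%) shares. The KO effector-like interval (6.16 to 18.6) overlapped the KO erythroid-like one. In WT the resting-like, activated-like (10.3 to 15.7) and cycling-like (13.9 to 19.8) intervals overlapped the erythroid-like one. Only the WT effector-like share (24.6 to 28.3) was clear of it. Itgb7 was found in 28.4% (26.5 to 30.4) and 33.2% (31.8 to 34.5) of resting-like cells against 3.83% and 14.8% of erythroid-like cells, Itgal in 11.1% and 8.70% against 0.851% and 3.71%, and Itga6 in 9.03% and 6.89% against 0.851% and 3.09%. Itgb2 was found in 11.7% and 12.3% against 2.98% and 6.80%. All 4 were above the erythroid-like share in both libraries. Thinning left out 44 WT and 55 KO erythroid-like cells and 8 KO resting-like cells.

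**Figure D5:**
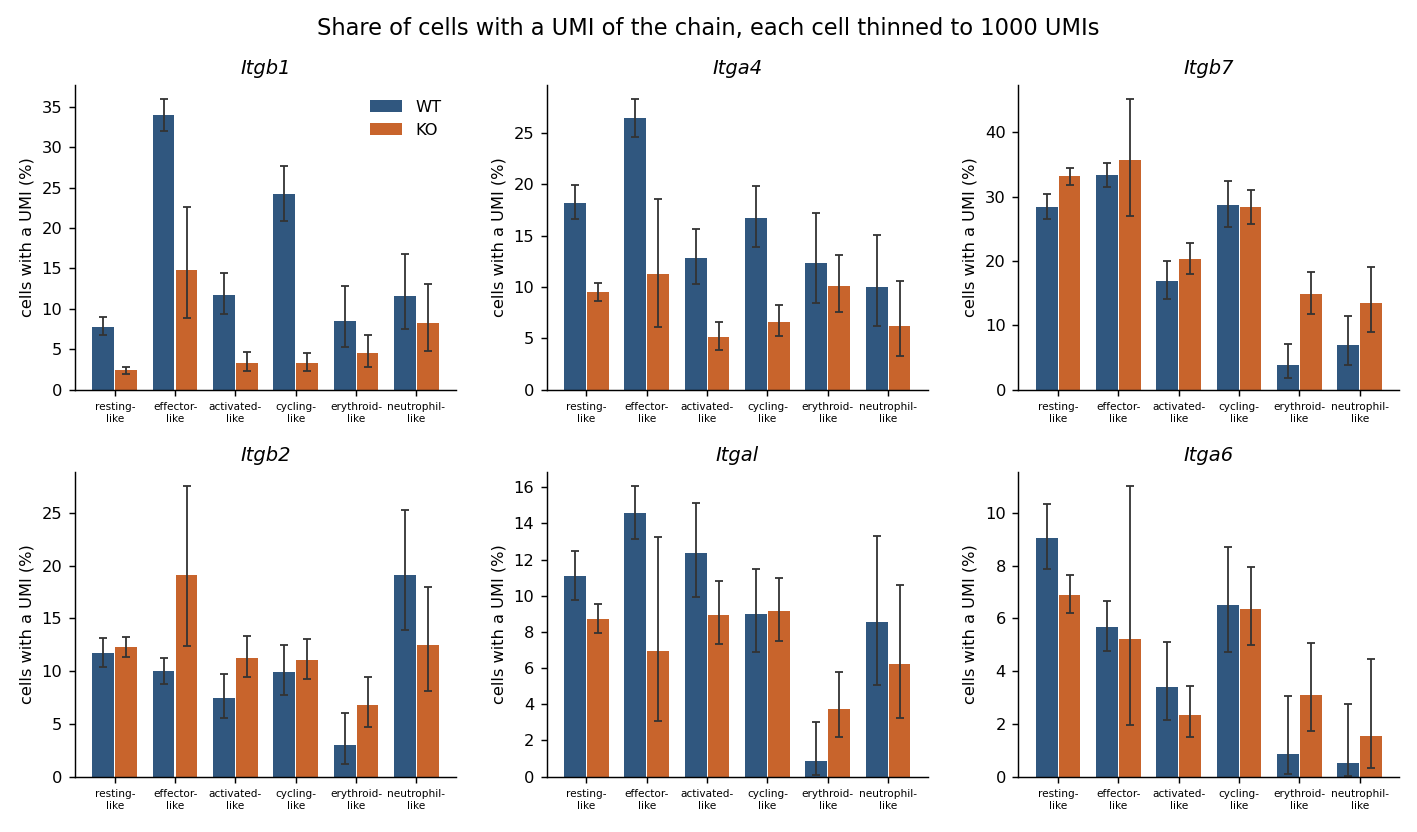
Share of cells with at least 1 UMI of 6 chains (vertical axes, percent, from 0) after each cell was thinned to 1000 UMIs, WT in blue and KO in orange, with exact Clopper-Pearson 95% intervals. For Itgb1 and Itga4 the erythroid-like bars reach the height of the KO resting-like bars, while for Itgb7 and Itgal the resting-like bars are higher.

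The pairs of a dimer were followed in the same thinned cells. UMIs of both VLA-4 chains, Itga4 and Itgb1, were found in 239 of 2335 WT effector-like cells (10.2%, 9.04 to 11.5) and 4 of 115 KO ones (3.48%, 0.956 to 8.67), and in 35 of 2148 WT (1.63%) and 18 of 4745 KO (0.379%) resting-like cells. The products of the single shares were 8.96% and 1.67% in effector-like cells. Itga4 with Itgb7 was found in 114 of 2148 WT (5.31%, 4.40 to 6.34) and 140 of 4745 KO (2.95%, 2.49 to 3.47) resting-like cells, with products of 5.18% and 3.15%. The LFA-1 pair was found in 30 (1.40%, 0.944 to 1.99) and 47 (0.991%, 0.729 to 1.32) of the same cells. Itgae with Itgb7 was found in 4 and Itgav with Itgb8 in 0 of the 2335 WT effector-like cells at this depth, and in 77 and 28 of them without thinning. A pair in 1 cell here is a co-detection of RNA and says nothing of the protein dimer.

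Across 13 points, the T-lineage cluster and library combinations with 100 cells or more, the 3 genes of 8704 with the level pattern most like each chain (Pearson r of log2(CPM + 1)) were as follows. For Itgb1 they were Klrg1 (0.97), an effector marker, Lcp1 (0.97), an actin-bundling protein, and Il9r (0.96). Those of Itga4 were Slc4a7, St8sia4 and Sdcbp (0.98 to 0.97), those of Itgb7 Selplg (0.97), the P-selectin ligand, Ms4a4b and Adgre5 (0.95 and 0.92), and those of Itga6 Mark2, Il17ra and Spata6 (0.97 each). Itgal had Nhlrc3, Rab11fip1 and Leng8 (0.95 to 0.94), Itgb2 had 0610030E20Rik, Gramd3 and Ccnd3 (0.92 to 0.89), Itgav had Znrf2, Ppp4r3b and Itga4 (0.93 to 0.91), Itgb8 had Atg16l2, Gcfc2 and Gpn3 (0.94 to 0.92) and Itgae had Pear1, Pon2 and Gm5547 (0.90 to 0.86). Among the members, Itga4 and Itgav were the pair most alike (0.91), and Itga4 and Itgb1 were at 0.79. The points share 2 libraries and differ widely in depth, and Itgb8 and Itgae rest on 324 and 254 UMIs, so these values are a description.

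Among 17 other integrin chains, 8 had 50 UMIs or more over the T lineage. Itgb3, which pairs with Itgav, was at 27.6 CPM in WT and 18.9 in KO resting-like cells, a ratio of 0.685 (0.585 to 0.803), and over the T lineage at 18.6 and 13.0 CPM. Itga2, a collagen receptor chain that pairs with Itgb1, was at 16.0 CPM in WT effector-like against 2.99 in WT resting-like cells, and its KO to WT ratio over the T lineage was 0.153 (0.117 to 0.197). Within states the Itga2 ratio was 0.533 (0.314 to 0.910) in resting-like, 0.348 (0.112 to 0.821, with 5 KO UMIs) in effector-like and 0.211 (0.115 to 0.367) in cycling-like cells. Itga7, a laminin receptor chain of the same beta chain, had a ratio of 0.400 (0.307 to 0.519) over the T lineage and of 0.429 (0.259 to 0.709) within resting-like cells. Itga1 was at 0.371 (0.216 to 0.619) over the T lineage, but within effector-like cells at 2.09 CPM in WT and 6.70 in KO (3.21, 1.11 to 7.61, with 6 KO UMIs). These T-lineage ratios move with the mix of states. Itga5, the fibronectin receptor chain, stood at 0.783 CPM in WT and 1.80 in KO T-lineage cells (2.30, 1.56 to 3.44). Itga9 (1.01), Itgam (0.842, 0.624 to 1.14) and Itga2b (1.72, 0.971 to 3.12) did not differ beyond counting error. Itgam was at 113 CPM in WT neutrophil-like cells, its known home.

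RNAs of intracellular genes that regulate integrins or link them to the cell were read as a list. Of 28 activation and adaptor genes, 27 had enough UMIs in resting-like cells. In these cells 1 was lower past 1.5-fold and 0 higher, where 8.57% of all genes were lower and 2.19% higher. The median log2 ratio of the 27 was -0.14, against -0.39 for the tested chains. The lower gene was Ptk2, focal adhesion kinase, with 50 UMIs in WT and 55 in KO (0.515, 0.345 to 0.772). Stk4 (Mst1), which relays chemokine signals to LFA-1, was at 295 and 213 CPM (0.721, 0.687 to 0.756), Rasgrp1, an exchange factor for Ras, at 127 and 100.1 CPM (0.787, 0.733 to 0.845), and Zyx, zyxin of focal adhesions, at 107 and 83.7 CPM (0.786, 0.727 to 0.849). In activated-like cells 1 of 26 was lower (Zyx, 0.558) and 2 higher (Rasgrp2, 1.71, and Cytip, 1.61), against 8.01% and 3.74% of all genes. In effector-like cells 0 of 26 passed in either direction, against 14.9% and 6.21%. In cycling-like cells 1 of 26 was lower (Zyx, 0.585) and 0 higher, against 7.32% and 7.16%. The genes for talin and kindlin-3, Tln1 and Fermt3, did not pass 1.5-fold in any state.

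Of 13 ligand genes 2 had enough UMIs in resting-like cells, and both encode ligands of LFA-1. In resting-like, activated-like and cycling-like cells 1 of the 2 was higher past 1.5-fold and 0 lower, against 2.19%, 3.74% and 7.16% of all genes, and with so few genes counted no share can be read from this. Icam1 was at 21.6 CPM in WT and 36.5 in KO resting-like cells (1.69, 1.45 to 1.97) and at 21.4 and 39.4 in activated-like cells (1.84, 1.52 to 2.23). Icam2 was at 47.4 and 47.6 CPM in resting-like cells (1.00, 0.897 to 1.12) and at 30.8 and 48.6 in cycling-like cells (1.58, 1.37 to 1.82). In effector-like cells the laminin chain gene Lamc1 had 155 UMIs in WT and 2 in KO (0.276, 0.0331 to 1.01), 1 of 3 ligand genes lower there against 14.9% of all genes.

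Genes of the TGF-beta route, in which Itgav and Itgb8 act, were read last. Of 14 genes, 13 had enough UMIs in resting-like cells, 1 was lower past 1.5-fold and 0 higher, with a median log2 ratio of -0.20, against 8.57% and 2.19% of all genes. Tgfbr1, a receptor chain, was at 50.8 CPM in WT and 33.8 in KO (0.666, 0.593 to 0.749). Its partner Tgfbr2 was at 74.3 and 52.9 CPM (0.712, 0.648 to 0.783), the signal transducer Smad3 at 19.4 and 14.6 (0.753, 0.625 to 0.908) and Smad7, a feedback inhibitor, at 163 and 122 (0.750, 0.704 to 0.799). In cycling-like cells 3 of 13 were higher past 1.5-fold, Smad7 (1.99, 1.78 to 2.24), Lrrc32 (1.63, 1.37 to 1.94), which holds latent TGF-beta on the Treg surface, and Skil (1.62, 1.41 to 1.88), and 0 were lower, against 7.16% higher and 7.32% lower of all genes. In effector-like cells Furin was at 1.71 (1.04 to 2.66) and Lrrc32 at 0.567 (0.349 to 0.873), each with 21 UMIs in KO, 1 of 13 in each direction against 6.21% higher and 14.9% lower. In activated-like cells 0 of 13 passed 1.5-fold in either direction, against 8.01% and 3.74%. Tgfb1 itself stood at 140 CPM in WT and 151 CPM in KO resting-like cells (1.08, 1.01 to 1.15).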

How the data were processed

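Per the labels and the study's methods, the authors made the deposited UMI counts per gene and barcode with Cell Ranger 5.0.1 on mm10 from 1 WT and 1 KO 10x Genomics library; the annotation release and the transcript end read are not given in the sources used here. The deposited counts were used as they stand and still hold barcodes of high mitochondrial share.

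Barcodes with 300 genes or more and no more than 5% of UMIs from mitochondrial genes were kept; 6471 WT and 4364 KO barcodes lay above that share. Log counts scaled to 10000 UMIs over 2000 variable genes (208 features, among them every integrin, listed or marker gene, were left out) gave 30 principal components, and a graph of 20 neighbours was divided by Leiden clustering (igraph 0.11.9, scikit-learn 1.9.0) at resolution 0.5, with no integration of the libraries. Clusters with 60% or more of the highest summed T cell marker level were T lineage. A state name needed 50% or more of its markers, and at least 3, raised 1.5-fold over the median T-lineage cluster, and shallow clusters needed a leading marker; this rule was chosen with the data in view. Doublets were not removed; an alternative dropped the 5% of WT and 8% of KO barcodes with the highest Scrublet scores (scanpy 1.11.5).

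UMIs were summed per library and state and given as CPM with exact Poisson intervals, ratios with exact conditional binomial intervals and shares with exact Clopper-Pearson intervals, at 95% (scipy 1.17.1). With 1 library per genotype no test was run. Genes with 100 UMIs or more over both groups counted as past 1.5-fold by their CPM ratio; log2 ratios behind medians had 0.5 added to each UMI sum. The ratio, interval and thinning steps were tested on simulated data. The members and all lists were chosen with earlier results of these data known. Named were all 9 chains, other chains with 50 UMIs or more in T-lineage cells, up to 4 genes of each further list with the largest log2 ratio in resting-like cells, and the 3 genes most like each chain (with 500 UMIs or more); further list genes past 1.5-fold, and Tln1, Fermt3 and Tgfb1, were added after their values were seen. Alternatives were a mitochondrial limit of 10%, doublet removal, resolution 1.0, means of single-cell CPM, thinning, totals without haemoglobin and granule genes, resting-like cells without effector-marker UMIs, the WT mix of states, a 2-fold limit and a minimum of 20 UMIs.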

Additional observations from a re-analysis of the deposited data

Results flagged for a closer look

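The KO to WT ratio of Itga6 lay on opposite sides of 1 in different states. It was 0.806 in resting-like and 0.656 in effector-like cells, and 1.30 in activated-like and 1.29 in cycling-like cells, each with a counting interval clear of 1. The difference was not tested, since there is 1 library per genotype. The effector-like, activated-like and cycling-like values did not keep their side of 1 under every alternative, as the values for Itga6 given above show. The resting-like value kept its side for the state as a whole. At resolution 1.0 it was 0.687 (0.597 to 0.791) in the larger resting-like cluster and 1.23 (0.829 to 1.91) in the smaller.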

How the results depend on the processing

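Over 91 results and 422 recomputed values, 338 stayed within the counting interval of the main value, or for counts within 1.5 times, and the others moved further. Of 335 recomputed ratios 16 lay on the other side of 1 from the main value, 1 of them from a ratio past 1.5-fold and the others from smaller differences of Itgb7, Itga6, Itgb2, Itgal, Itgav and Itgae. The 1 was Itga6 in effector-like cells, 1.02 in place of 0.656 with the highest doublet scores removed, where another cluster with 360 KO cells also took the effector-like name. Under the same alternative the effector-like ratio was 0.183 for Itgb1 and 0.189 for Itgae. The count of chains past 1.5-fold in KO against WT resting-like cells was 5 of 9 without a UMI minimum, and 4 when cells were thinned, with resting-like cells free of effector-marker UMIs (an alternative chosen after seeing the data), and at 2-fold. The count in WT effector-like against resting-like cells was 5, and moved to 2 at resolution 1.0 and to 3 at 2-fold. With the minimum of 100 UMIs, 2 of 7 chains passed 2-fold in KO resting-like cells, against 1.32% of 9253 genes lower and 0.562% higher. In WT effector-like against resting-like cells 3 of 9 passed 2-fold, against 2.74% of 9400 genes lower and 5.5% higher. Shares over all genes are not given here for thinned cells, marker-free cells or resolution 1.0. With each state taken as a whole, Itgb1 ratios over all alternatives ran from 0.227 to 0.316 in resting-like cells. They ran from 0.201 to 0.284 in activated-like and 0.119 to 0.190 in cycling-like cells. Those of Itga4 ran from 0.430 to 0.486, 0.330 to 0.404 and 0.353 to 0.400. In effector-like cells the Itgb1 and Itga4 ratios ran from 0.183 to 0.666 and from 0.317 to 0.709. Single clusters at resolution 1.0 lay outside some of these ranges, as given above. Lowering the UMI minimum to 20 put 13.4% of 11636 genes lower and 3.88% higher past 1.5-fold in KO resting-like cells, where 5 of 9 chains passed. In WT effector-like against resting-like cells it put 14.3% of 11809 genes lower and 14.8% higher, with 5 of 9 chains past. Other causes of these shifts were not tested. No paired analysis was possible because each group has 1 library. Depth limits Itgb8, Itgae and all KO effector-like values.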
